A study of Mus musculus with 8 samples.

Results

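The genes of cholesterol and fatty acid synthesis were followed in macrophages sorted from mouse mammary tumours. The set held 32 genes taken from the 2 pathways, 22 of the sterol branch and 10 of the fatty acid branch, out of 18194 genes with a probe set on the array. A member was measured by the probe sets annotated with its symbol alone, and by the brightest of these where there were several. All 32 had such a probe set, and all 32 passed a filter on mean signal over the 8 arrays. Srebf1 was counted with the fatty acid branch as a matter of choice, since its protein can act on both branches.

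The cells came from mammary tumours of 80-day-old FVB mice carrying PyMT, a viral oncogene that drives these tumours. They were sorted by flow cytometry for F4/80, a macrophage surface protein. Control mice were PyMT;E2f3 f/f, with both E2f3 alleles flanked by recombination sites but without Cre recombinase, and gave 4 arrays lettered B, C, D and G. The mice called E2f3-deleted here were PyMT;Lys Cre:E2f3 f/f, in which a lysozyme promoter, active in myeloid cells, drives Cre, and gave 4 arrays lettered A, E, F and H. Presence of Cre and loss of E2f3 cannot be told apart, because no group carried Cre with intact E2f3. The labels do not say whether each array came from its own animal, so the p-values rest on a spread among samples that could be technical in part. The scan files carry letters of their own, which differ from those of the titles on most arrays. They run from A to H in the order in which the arrays are listed, controls first, so they need not be replicate letters. Read as title letters, they would exchange control B and E2f3-deleted F. Such an exchange tends by itself to shrink a difference between the titled groups. Groups follow the titles and genotypes, and values grouped by the scan file letters are given for the members with the largest differences.

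Cells make cholesterol and fatty acids from the same precursor, cytosolic acetyl-CoA. The sterol route runs through mevalonate, isoprenoids and squalene to lanosterol and then, in many steps, to cholesterol. The fatty acid route runs through malonyl-CoA to palmitate, which is lengthened and desaturated. Both are turned on by the sterol regulatory element-binding proteins, membrane-bound transcription factors encoded by Srebf1 and Srebf2. When membrane sterols are low, the escort protein SCAP carries them to the Golgi for cleavage, and when sterols are plentiful the INSIG proteins hold SCAP in the endoplasmic reticulum. In macrophages the balance of this synthesis with uptake and efflux sets the cholesterol content of the cell.

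Promoter sequences are shown for members on which the results below turn and which RefSeq (GRCm38.p6) promoters covered. Of the 32 members, 25 had a promoter in the table used. The 250 bases before each annotated start were searched on both strands for CCAAT, the box bound by NF-Y, a partner of the SREBPs, and for TCACNCCAC, a form of the sterol regulatory element. A CCAAT box was found in 17 of 18 sterol members (94.4%) and in 3 of 7 fatty acid members (42.9%), against 39.7% of the 8855 tested genes with a promoter and 37.5% of all 27025 genes in the table. The sterol element was found in 1 of the 25 members, Hmgcs1, against 1.22% of all genes. The E2F sites TTTGGCGC and TTTCCCGC were found in 0 of the 25, against 0.994% and 2.07% of the tested genes and 0.485% and 1.03% of all genes. These matches are letters in a window and do not show that a factor binds there. The last 150 bases before the start are given 5′ to 3′ on the gene's strand, with CCAAT (or ATTGG, its other strand) and the sterol element in capitals. Idi1, Lss and Cyp51 stand for the sterol enzymes that varied together among the controls, and Hmgcs1 holds the sterol element. Tm7sf2 is the sterol gene with the smallest p, Fasn is the fatty acid synthase, and Me1 is a fatty acid member with no match in this stretch. Me1 is nonetheless, with Fasn and Srebf1, among the 3 fatty acid members with a CCAAT box in the 250 bases searched. It has 2 annotated starts, of which only the more upstream is shown.
Idi1 (chr13:8885456-8885605, plus strand): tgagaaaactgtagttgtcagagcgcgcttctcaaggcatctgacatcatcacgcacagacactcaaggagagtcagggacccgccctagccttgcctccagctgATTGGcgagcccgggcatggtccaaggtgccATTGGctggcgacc
Lss (chr10:76531455-76531604, plus strand): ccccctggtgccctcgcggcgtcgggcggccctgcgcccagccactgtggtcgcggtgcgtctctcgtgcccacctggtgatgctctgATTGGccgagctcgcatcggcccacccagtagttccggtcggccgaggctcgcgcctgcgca
Cyp51 (chr5:4104698-4104847, minus strand): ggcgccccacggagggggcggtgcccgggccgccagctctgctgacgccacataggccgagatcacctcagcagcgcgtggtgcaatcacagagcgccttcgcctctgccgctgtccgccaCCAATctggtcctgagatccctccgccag
Hmgcs1 (chr13:119690201-119690350, plus strand): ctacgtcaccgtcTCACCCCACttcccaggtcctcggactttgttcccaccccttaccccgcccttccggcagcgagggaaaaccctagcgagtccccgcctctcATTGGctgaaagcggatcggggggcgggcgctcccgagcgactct
Tm7sf2 (chr19:6067851-6068000, minus strand): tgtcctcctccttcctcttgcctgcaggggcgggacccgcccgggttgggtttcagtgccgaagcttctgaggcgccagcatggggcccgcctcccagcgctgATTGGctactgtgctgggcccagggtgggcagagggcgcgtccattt
Fasn (chr11:120824548-120824697, minus strand): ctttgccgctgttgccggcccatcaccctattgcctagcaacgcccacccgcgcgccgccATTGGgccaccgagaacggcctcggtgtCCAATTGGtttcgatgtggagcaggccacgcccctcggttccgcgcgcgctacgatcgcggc
Me1 (chr9:86695915-86696064, minus strand): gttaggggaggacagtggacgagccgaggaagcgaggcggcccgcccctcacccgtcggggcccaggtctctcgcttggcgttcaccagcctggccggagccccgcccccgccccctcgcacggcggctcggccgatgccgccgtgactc
The boxes lay close to the start in most of these genes. Counted from the first base of the match, the CCAAT box lay 62 bases before the start in Lss, 29 in Cyp51, 45 in Hmgcs1 and 47 in Tm7sf2. Idi1 had a pair of boxes at 45 and 14 bases. Fasn had 3, at 90, 62 and 59 bases, of which those at 62 and 59 overlap as a palindrome. The sterol element of Hmgcs1 began 137 bases before the start.

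E2f3 itself had signals of 7.66, 7.63, 7.83 and 7.58 in controls B, C, D and G, and 7.65, 7.54, 7.53 and 7.79 on arrays A, E, F and H, a difference of −0.046 (SE 0.082; limma, adjusted p = 0.812). A dimmer E2f3 probe set differed by −0.13 (SE 0.086; limma over all probe sets, adjusted p = 0.613), and the groups overlapped in both. Where these probe sets lie relative to the deleted part is not given in the sources used here, so they do not check the genotype labels. The arrays were alike in overall log2 signal, their medians lying between 5.65 and 5.69, and their number limits the precision of every difference. All 12 macrophage markers passed the filter, with Csf1r from 14.29 to 14.38 and Lyz2 from 14.34 to 14.64 over the 8 arrays. Their median was −0.037 to 0.062 in controls and −0.18 to −0.076 in E2f3-deleted macrophages. Of these 12 markers, 11 had lower and 1 higher means in E2f3-deleted macrophages, with differences from −0.39 to 0.014. At an unadjusted p under 0.05 (limma) 3 were lower, against 6.91% of all genes, and 0 passed after adjustment. Without overlap 3 were lower, against 4.23% of all genes. Markers of other cells differed between arrays, as medians of log2 signal minus the control mean. On arrays A, E, F and H they were 1.96, 1.03, 2.01 and 0.04 for endothelium, 0.31, 0.79, 0.80 and −0.23 for mammary epithelium, 0.97, −0.42, 0.01 and 1.55 for fibroblasts, and 0.34, 1.18, −0.35 and 3.59 for mast cells. Grouped by the scan file letters, the median difference of endothelial markers was 0.10 instead of 1.31 and that of epithelial markers −0.17 instead of 0.46. Among the controls, replicate D had the highest medians for endothelium (0.42) and mammary epithelium (0.74). In bulk RNA, more cells of a type and more RNA per cell cannot be told apart. Replicate H stood apart from its group, with a mean correlation of 0.983 with the other E2f3-deleted arrays where A, E and F had 0.990 to 0.991.

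The comparison of the groups asked how deletion of E2f3 in myeloid cells altered gene expression in tumour-associated macrophages. Of the 10 fatty acid genes, 9 had higher and 1 lower mean signals in E2f3-deleted macrophages, with a median log2 difference of 0.23. Of the 22 sterol genes, 8 had higher and 14 lower means, with a median of −0.05. Over all 10916 genes tested 41.3% had higher means and the median was −0.03. The difference between the branches was not tested. No member passed an adjusted p of 0.05 (limma, Benjamini-Hochberg over all genes tested, smallest adjusted p = 0.255), and neither did any other gene (0%). At an unadjusted p under 0.05 in limma there were 3 higher fatty acid genes, Scd1, Me1 and Srebf1, against 7.27% of all genes, and 1 lower sterol gene, Tm7sf2, against 6.91%. These 4 of 32 members compare with 14.2% of all genes in either direction. With the groups taken from the scan file letters the fatty acid median was 0.073, and 1 member, Dhcr7 at −0.26, had an unadjusted p under 0.05 (limma, adjusted p = 0.893). That grouping left 449 of all 10916 genes at an unadjusted p under 0.05 (limma), where the titles gave 1548.

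**Figure D1:**
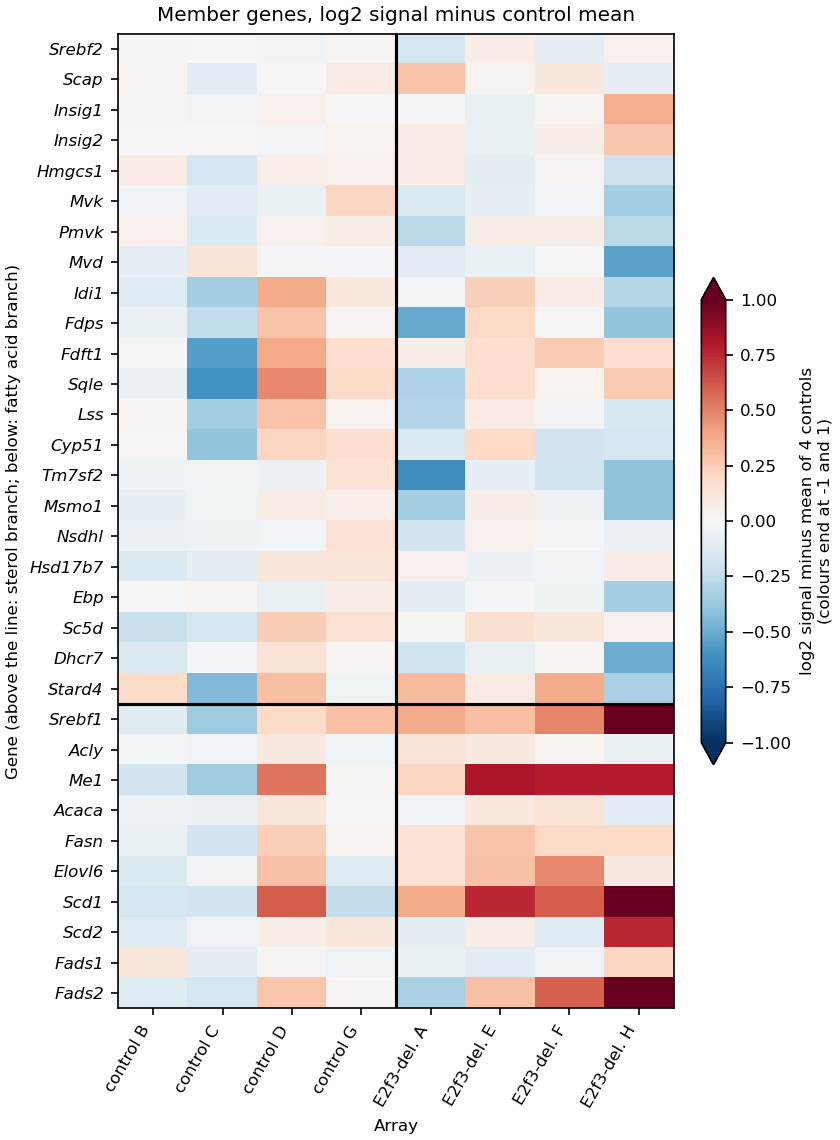
Each cell is a member's log2 signal on an array minus its mean over the 4 controls, with controls left and E2f3-deleted arrays right of the vertical line and the fatty acid branch below the horizontal line. Me1 and Scd1 are darkest on E2f3-deleted arrays and on control D, Srebf1, Scd2 and Fads2 on replicate H, while sterol genes such as Sqle and Fdft1 vary most between controls C and D.

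Srebf1 encodes the SREBP counted here with the fatty acid genes. Its log2 signals were 10.89, 10.66, 11.21 and 11.31 in controls B, C, D and G, and 11.39, 11.32, 11.51 and 12.65 on E2f3-deleted arrays A, E, F and H. All E2f3-deleted arrays lay above all controls, but the nearest pair was only 0.012 apart, and replicate H lay far above the rest. Controls had a mean of 11.02 ± 0.295 and E2f3-deleted macrophages one of 11.72 ± 0.627 (SD, n = 4 for both), a log2 difference of 0.70 (SE 0.301, 95% interval from 0.0063 to 1.39; limma, adjusted p = 0.349). It was 0.39 without replicate H, and also 0.39 with the scan file letters. Groups that do not overlap were found in 2 of the 32 members, Srebf1 and Tm7sf2, against 8.49% of all genes, no larger a share. By direction, 1 member was higher, against 4.26% of all genes, and 1 lower, against 4.23%. The separation of Srebf1 was lost when arrays were quantile normalized again or centred on their medians, and that of Tm7sf2 when they were quantile normalized again. Both were lost with the scan file letters, where Mvd at −0.22 and Dhcr7 were the members that did not overlap, both lower, against 2.41% of all genes.

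The enzymes that supply the fatty acid route differed from each other. Acly, which makes cytosolic acetyl-CoA from citrate, had signals of 11.74, 11.72, 11.84 and 11.71 in controls B, C, D and G, and 11.88, 11.84, 11.77 and 11.68 in replicates A, E, F and H. The groups overlapped, with a log2 difference of 0.041 and a 95% interval from −0.10 to 0.18 (limma). Other Acly probe sets above the filter had the opposite sign, −0.16 and −0.21. Me1, the malic enzyme, which makes NADPH for lipid synthesis, had signals of 7.90, 7.73, 8.63 and 8.11 in the controls, and 8.30, 8.90, 8.88 and 8.88 in the E2f3-deleted arrays. Replicates E, F and H lay above all controls and replicate A did not, since control D was higher. Me1 was 1.57-fold higher by the group means, a log2 difference of 0.65 (SE 0.213, 95% interval from 0.16 to 1.14; limma, adjusted p = 0.271). With the scan file letters it was 0.16. A second Me1 probe set gave 0.70 (SE 0.173; limma over all probe sets, adjusted p = 0.323).

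Chain synthesis had small differences. Acaca, the carboxylase that makes malonyl-CoA, differed by 0.022, with a 95% interval from −0.15 to 0.19 (limma). Fasn, the synthase that builds palmitate, had signals of 8.84, 8.72, 9.15 and 8.94 in controls B, C, D and G, and 9.06, 9.20, 9.11 and 9.11 in replicates A, E, F and H. Control D fell within the E2f3-deleted range and the other controls lay below it. The log2 difference was 0.21 (SE 0.092, 95% interval from −0.0053 to 0.42; limma, adjusted p = 0.362), and 0.073 with the scan file letters. Elovl6, which lengthens palmitate, had signals from 8.53 to 8.97 in controls and 8.77 to 9.16 in E2f3-deleted macrophages, again with control D as the only control inside the E2f3-deleted range. Its difference was 0.25 (SE 0.123; limma, adjusted p = 0.394), with the scan file letters −0.059, and a dimmer probe set gave 0.19.

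Among the desaturases, Scd1 had the largest difference. SCD enzymes put the first double bond into saturated fatty acids. Scd1 signals were 8.52, 8.51, 9.30 and 8.46 in controls B, C, D and G, and 9.06, 9.45, 9.30 and 9.83 in replicates A, E, F and H. Control D lay among the E2f3-deleted arrays, and the other 3 controls lay below all of them. The difference was 0.71 (SE 0.226, 95% interval from 0.20 to 1.23; limma, adjusted p = 0.255), a 1.64-fold ratio of the group means. With the scan file letters it was 0.32. A dimmer Scd1 probe set gave 0.39 with a wide error (SE 0.446). Scd2 signals were 11.32, 11.42, 11.51 and 11.56 in the controls and 11.36, 11.51, 11.33 and 12.21 in the E2f3-deleted arrays. Only replicate H lay above the controls, and without it the difference of 0.15 turned to −0.055. Scd1 and Scd2 are similar genes of a cluster, and probe sets may share signal between them.

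The desaturases of polyunsaturated fatty acids gave no common pattern. Fads2 had signals of 7.06, 7.01, 7.46 and 7.20 in the controls and 6.86, 7.47, 7.77 and 8.29 in replicates A, E, F and H. Replicate A lay below all controls and the other 3 above them. The difference was 0.42 (SE 0.275; limma, adjusted p = 0.504), and it was 0.19 without replicate H, 0.66 without replicate A and 0.061 with the scan file letters. The other Fads2 probe sets gave 0.35 and 0.22. Fads1 differed by −0.0022, with a 95% interval from −0.20 to 0.19 (limma), a sign that turned when arrays were quantile normalized again.

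**Figure D2:**
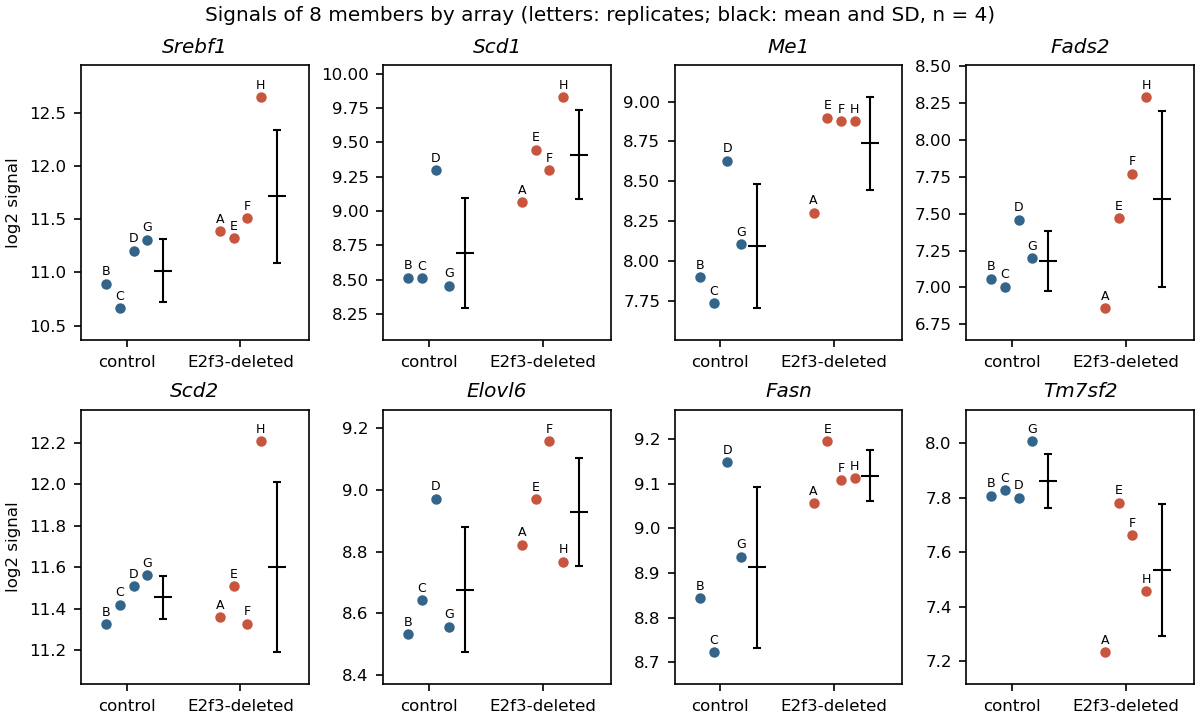
Log2 signals of 7 fatty acid members and Tm7sf2 on each array, with replicate letters and the mean and SD of 4 arrays in black; the vertical axes differ and do not start at 0. Control D sits with the E2f3-deleted arrays for Scd1, Me1, Elovl6 and Fasn, and replicate H sets the upper end for Srebf1, Scd1, Scd2 and Fads2.

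Without control D, the groups of 7 members in place of 2 did not overlap, Srebf1, Me1, Fasn, Elovl6 and Scd1 higher and Tm7sf2 and Ebp lower in E2f3-deleted macrophages, against 14.6% of all genes with the same arrays. The other 25 still overlapped, and leaving out any 1 array raised the share of all genes, to between 10.6% and 16.7%. The Scd1 difference was then 0.92 and that of Me1 0.83, and still none passed (limma, smallest adjusted p = 0.141). Without replicate A there were 5 such members, against 10.7% of all genes. As log2 signal minus the control mean, the fatty acid branch had medians per array of −0.12, −0.14, 0.21 and 0.0053 in controls B, C, D and G, and 0.14, 0.29, 0.34 and 0.48 in replicates A, E, F and H. On the same arrays the epithelial median was −0.36, −0.39, 0.74 and −0.0089 in the controls, so that control D was highest in both. Replicate H, with the highest fatty acid median, had an epithelial median of −0.23 and a mast cell median of 3.59. The part of these cells in the fatty acid values was not tested.

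**Figure D3:**
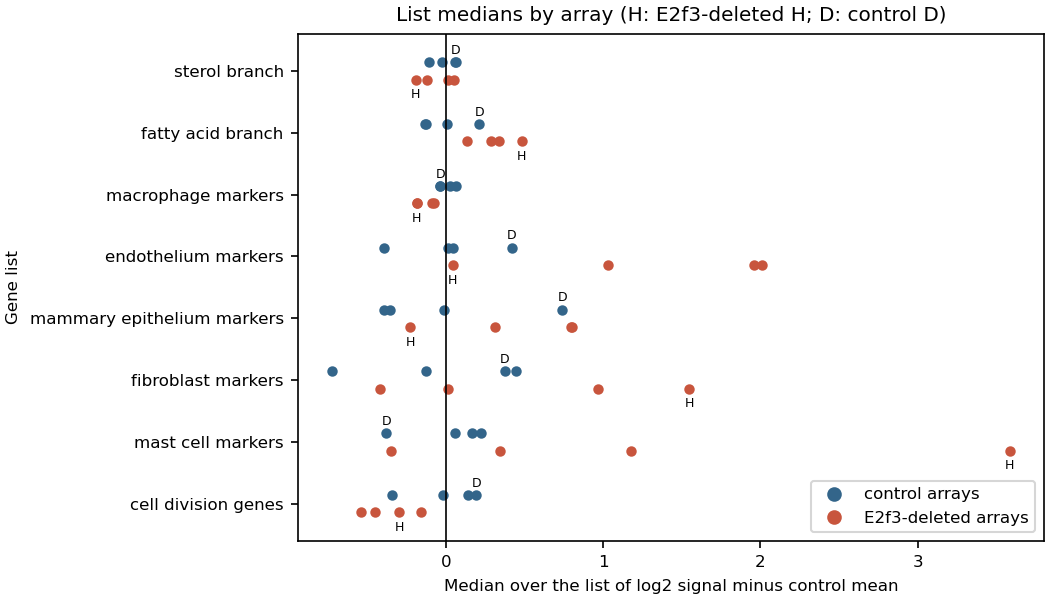
Medians over each gene list of log2 signal minus the control mean, with a point for each of 4 control and 4 E2f3-deleted arrays; letters mark control D and E2f3-deleted replicate H. The fatty acid medians run from 0.14 to 0.48 in the E2f3-deleted arrays and from −0.14 to 0.21 in the controls, whereas the sterol medians of the groups overlap and the mast cell median of replicate H reaches 3.59.

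The summed signals of the marker lists, as log2 of the sum over each list, give the size of these shifts. Epithelial markers (12 of 12 above the filter) summed to 12.65 to 13.76 in controls and 12.85 to 13.92 in E2f3-deleted macrophages. Milk protein genes summed to 14.19 to 14.61 in controls and 14.23 to 14.57 in E2f3-deleted macrophages. Of 5 tested, 2 had higher and 3 lower means, with a median of −0.34. Csn3, the brightest, had signals of 14.08, 14.11, 14.34 and 14.13 in controls B, C, D and G. In replicates A, E, F and H they were 14.34, 14.43, 14.32 and 14.21. The part of milk-producing cells in the fatty acid values was not tested. Mast cell markers (8 of 10 above the filter) summed to 9.45 to 10.10 in controls and 9.93 to 14.50 in E2f3-deleted macrophages. Adipocytes are rich in fatty acid synthesis enzymes. Of 10 adipocyte markers with a probe set, 7 lay under the filter, and the list median ran from −0.11 to 0.15 in the E2f3-deleted arrays. The adipocyte sum was 9.11 to 10.06 in controls and 10.03 to 11.26 in E2f3-deleted macrophages. Its highest member was Fabp4, which is not particular to adipocytes, since other cells, endothelium among them, express it. Which cells gave its signal here was not tested. Fabp4 signals were 7.01, 9.27, 8.41 and 8.78 in controls B, C, D and G. On arrays A, E, F and H they were 10.91, 10.37, 10.89 and 9.33, with no overlap unless the scan file letters are used. On array A the sum was 11.26 and Fabp4 alone lay at 10.91, so the sum there was largely this gene. Of the 3 adipocyte markers above the filter, 2 had higher and 1 lower means in E2f3-deleted macrophages. An unadjusted p under 0.05 (limma) was reached by Fabp4 and by the lower marker, which differed by −0.22. Pparg differed by 0.29 with overlapping groups. The part of adipocytes in the fatty acid values was not tested. RNA integrity also differed, with a Gapdh 3′ minus 5′ probe set difference of 1.45 ± 0.0637 for control and 1.67 ± 0.167 for E2f3-deleted arrays (SD, n = 4 for both), and its part in the results was not tested.

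The regulators of the sterol branch had differences close to 0. Srebf2, the SREBP that favours sterol genes, differed by −0.036 (95% interval from −0.18 to 0.11; limma). Scap had signals of 9.94, 9.82, 9.93 and 10.004 in controls B, C, D and G, and 10.21, 9.96, 10.03 and 9.84 in replicates A, E, F and H, with overlapping groups. Its difference was 0.085, with a 95% interval from −0.11 to 0.28. Insig1 and Insig2, whose proteins retain SCAP, differed by 0.077 and 0.084. In both, replicate H was the highest array, at 6.93 for Insig1 against 6.49 to 6.61 elsewhere and at 9.27 for Insig2 against 8.93 to 9.07 elsewhere. Without replicate H the Insig1 difference turned to −0.019.

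The mevalonate steps had lower means in 4 of 4 genes, none past the threshold. Hmgcs1, the synthase that makes HMG-CoA, had signals of 12.05, 11.81, 12.03 and 12.03 in controls B, C, D and G, and 12.06, 11.89, 12.01 and 11.78 in replicates A, E, F and H. The groups overlapped almost fully, with a difference of −0.048 and a 95% interval from −0.24 to 0.15 (limma). The kinases Mvk and Pmvk differed by −0.14 and −0.10, and the decarboxylase Mvd, which makes isopentenyl diphosphate, by −0.17. Replicate H held the lowest signal of the 8 arrays for Hmgcs1, Mvk and Mvd, and without it the Mvd value was −0.054.

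Idi1, which isomerises isopentenyl diphosphate, had signals of 8.62, 8.42, 9.13 and 8.85 in the controls and 8.73, 8.99, 8.82 and 8.46 in the E2f3-deleted arrays. The E2f3-deleted arrays all lay within the control range, and the difference was −0.0029 (95% interval from −0.39 to 0.38; limma). Fdps, which makes farnesyl diphosphate, differed by −0.17 (SE 0.174). Fdft1, which joins farnesyl units into squalene, differed by 0.16, with a second probe set at −0.12. Sqle, the squalene epoxidase, had signals of 8.92, 8.37, 9.46 and 9.17 in controls B, C, D and G, and 8.67, 9.15, 9.02 and 9.23 in replicates A, E, F and H. Again all E2f3-deleted arrays lay within the control range, and the difference was 0.037 (95% interval from −0.49 to 0.56). Lss, which closes the ring to lanosterol, differed by −0.10 (95% interval from −0.41 to 0.21).

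Of the 8 enzymes between lanosterol and cholesterol, 6 had lower means, with a median of −0.10. Tm7sf2, a sterol reductase, had signals of 7.81, 7.83, 7.80 and 8.01 in controls B, C, D and G, and 7.23, 7.78, 7.66 and 7.46 in replicates A, E, F and H. All E2f3-deleted arrays lay below all controls, replicate E by only 0.018. The difference was −0.33 (SE 0.120, 95% interval from −0.60 to −0.051; limma, adjusted p = 0.294), and it ran from −0.41 without replicate E to −0.23 without replicate A. With the scan file letters it was −0.25. Ebp, the sterol isomerase, had signals of 11.09, 11.12, 11.03 and 11.15 in the controls and 11.00, 11.08, 11.05 and 10.77 in the E2f3-deleted arrays. Its groups overlapped through control D, and the difference was −0.12 (95% interval from −0.30 to 0.055).

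The remaining enzymes of this stretch had overlapping groups. Dhcr7, a reductase of the final steps, differed by −0.19 (SE 0.116) and the methyl oxidase Msmo1 by −0.18 (SE 0.108). Replicate H was lowest in both, at 7.97 and 9.42, and without it the Dhcr7 value was −0.084 and that of Msmo1 −0.11. The demethylase Cyp51 differed by −0.079, Nsdhl of the demethylation complex by −0.053 and the desaturase Sc5d by 0.079. Hsd17b7, the ketoreductase of that complex, differed by 0.0060, and its sign turned when arrays were quantile normalized again or centred. Stard4, which carries cholesterol between membranes, had signals of 8.34, 7.72, 8.46 and 8.12 in the controls and 8.48, 8.24, 8.53 and 7.84 in replicates A, E, F and H. The groups overlapped, with a difference of 0.11 (95% interval from −0.35 to 0.57).

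**Figure D4:**
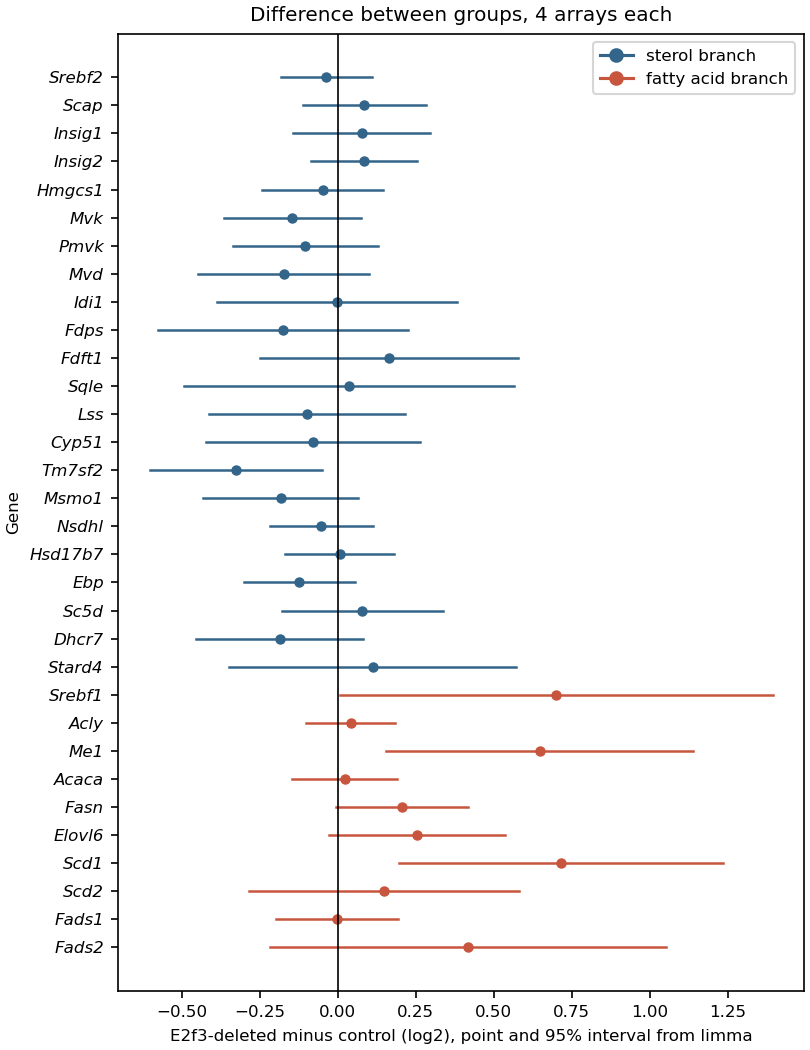
Points are log2 differences, E2f3-deleted minus control, with 95% limma intervals, for sterol (blue) and fatty acid (red) members with 4 arrays in each group. The intervals of Srebf1, Me1 and Scd1 lie above 0 and that of Tm7sf2 below 0, before adjustment for the number of genes tested; those of the other members include 0.

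In 18 of the 22 sterol genes (81.8%) and 9 of the 10 fatty acid genes (90.0%) the range over the 4 controls exceeded the size of the group difference, as in 83.3% of all genes. Control C was the lowest and control D the highest of the controls in 8 of the 22 (36.4%), against 11.3% of all genes. This pattern was noticed after the values were seen. The 8 were Idi1, Fdps, Fdft1, Sqle, Lss, Cyp51, Stard4 and Insig1. Relative to the control mean, Sqle was at −0.61 in control C and 0.48 in control D, Fdft1 at −0.55 and 0.38, Cyp51 at −0.39 and 0.21, and Idi1 at −0.34 and 0.37. Insig1 moved in the same order but by only −0.031 and 0.046. In the fatty acid branch, 4 of 10 genes had the same order. On control C the median was −0.39 for mammary epithelium, −0.34 for cell division genes and −0.72 for fibroblasts, the lowest control each time. On control D they were 0.74, 0.19 and 0.38. Control D was the highest control for mammary epithelium and cell division, but for fibroblasts control G was, at 0.45. The part of these in the sterol values was not tested.

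**Figure D5:**
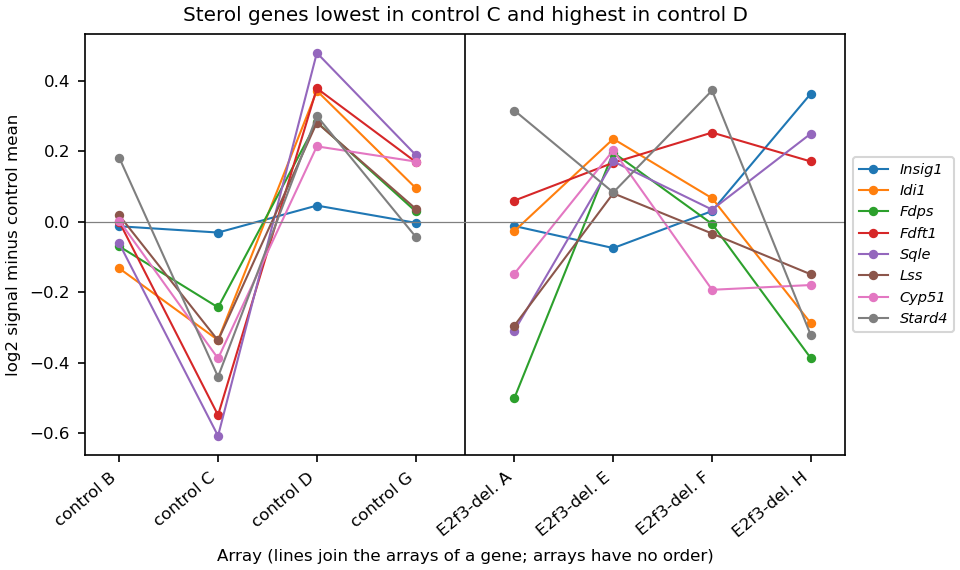
Log2 signal minus the control mean for the 8 sterol members that were lowest in control C and highest in control D, by array; lines only join the points of a gene. Sqle spans −0.61 to 0.48 over the controls, and the same genes follow no single order over the E2f3-deleted arrays.

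No E2f3-deleted array is a counterpart of control C or D, so that order could not be looked for among them. Idi1, Fdps, Fdft1, Sqle, Lss and Cyp51 were higher in replicate E than in replicate A, and Insig1 and Stard4 were lower. Fdps was lowest in replicates A (−0.50) and H (−0.39), Sqle and Lss in replicate A (−0.31 and −0.29), Idi1 and Stard4 in replicate H (−0.29 and −0.32), and Fdft1 lay between 0.060 and 0.25 on all 4. Replicate H was the lowest E2f3-deleted array in 9 of 22 sterol genes (40.9%, against 38.6% of all genes) and the highest in 5 of 10 fatty acid genes (50.0%, against 26.7%). The sterol medians per array were −0.025, −0.10, 0.065 and 0.059 in the controls and −0.12, 0.049, 0.013 and −0.19 in replicates A, E, F and H, so that the branches lay farthest apart in replicate H.

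Other genes of the pathways gave few differences. Of 6 further sterol synthesis genes tested, 3 were higher and 3 lower, with a median of −0.050. Of these, 0 had an unadjusted p under 0.05 (limma), against 14.2% of all genes. Erg28, a scaffold of sterol demethylation, differed by −0.13 with groups that did not overlap, Ggps1, which makes geranylgeranyl diphosphate, by −0.13, and Dhdds of dolichol synthesis by −0.11. Erg28 was the only 1 of the 6 without overlap, and 4.23% of all genes were lower without overlap. Of 10 genes of SREBP processing and turnover, 4 were higher and 6 lower, with a median of −0.020. The proteases that cleave the SREBPs, Mbtps1 and Mbtps2, differed by 0.074 and 0.0086, and the sign of Mbtps2 turned with median centring. Tmem97, a sterol-responsive membrane protein, had the only unadjusted p under 0.05 of that list, with signals of 7.73, 7.64, 7.92 and 7.74 in controls and 7.30, 7.55, 7.55 and 7.32 in replicates A, E, F and H. Its groups did not overlap, as in 8.49% of all genes, and the difference was −0.33 (SE 0.088; limma, adjusted p = 0.218). Erlin1 differed by −0.057, also without overlap, and Fbxw7 by −0.089 with overlap. Tmem97 and Erlin1 were the 2 of 10 that were lower without overlap, against 4.23% of all genes. The 1 of 10 at an unadjusted p under 0.05 (limma) compares with 14.2% of all genes.

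Of 17 further fatty acid synthesis genes tested, 7 were higher and 10 lower, with a median of −0.034, near that of all genes. Elovl5, an elongase of polyunsaturated fatty acids, had signals of 12.28, 12.27, 12.20 and 12.28 in controls and 12.64, 12.50, 12.39 and 12.57 in replicates A, E, F and H. Its groups did not overlap, and the difference was 0.27 (SE 0.066; limma, adjusted p = 0.203), the only one of the list at an unadjusted p under 0.05. That 1 of 17 compares with 14.2% of all genes. Thrsp, a lipogenic regulator, differed by 0.59 and Acss2, which makes acetyl-CoA from acetate, by 0.50. The groups overlapped for Thrsp and not for Acss2. Elovl5 and Acss2 were the 2 of 17 that were higher without overlap, against 4.26% of all genes. Replicate H was the highest array for both, with 12.35 for Thrsp where A, E and F had 11.28 to 11.45, and 8.38 for Acss2 where they had 7.29 to 7.39. Without replicate H the values were 0.34 and 0.24.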

How the data were processed

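Total RNA of sorted macrophages was made into biotinylated cRNA for Affymetrix arrays, per the labels' protocols. For each of 8 arrays the authors deposited log2 values of 45101 probe sets, computed with RMA per the submitters' processing notes. RMA gives all arrays like distributions, which hides any change common to most genes. Its version is not given in the sources used here. Values were used as deposited.

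The platform annotation gave 34958 probe sets exactly 1 symbol, 932 several and 9211 none. The brightest probe set by mean over the 8 arrays stood for its gene. Genes under the 40th percentile of mean signal (log2 6.00) were left out, and 10916 were tested with limma 3.58.1 under R 4.3.3 (moderated two-sided test by lmFit and eBayes, no covariate, Benjamini-Hochberg over all genes tested). The test was checked on simulated arrays. Differences are in log2 units, E2f3-deleted minus control. All members are named. Of each other pathway list the 3 genes with the smallest p are named, with Mbtps1, Mbtps2 and Nr1h3 in any case. Members and lists were chosen with earlier results of these data known. Branch medians carry no test. Alternatives covered the choice of probe set, filter, normalization, prior, array weights, an unmoderated test, each array left out, and grouping by the letter of the scan file, which, read as a title letter, exchanges control B and E2f3-deleted F. No replicate letters are shared, so arrays were not paired.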

Additional observations from a re-analysis of the deposited data

Results flagged for a closer look

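Within a group of 4 arrays, single values far from the other 3 were sought in the members, the other named genes and the branch medians. The gap to the nearest value had to exceed 0.829 of the group's range, which chance alone gives in about 5% of groups. Of 96 groups, 14 held such a value. In E2f3-deleted replicate H these were Srebf1 (12.65, with the others from 11.32 to 11.51), Thrsp (12.35, others 11.28 to 11.45), Acss2 (8.38, others 7.29 to 7.39), Ggps1 (7.57, others 7.39 to 7.42) and Erlin1 (10.98, others 11.03 to 11.04). Replicate H also had the highest mast cell and fibroblast medians of the 8 arrays, 3.59 and 1.55, whose part in these values was not tested. In replicate A they were Me1 (8.30, others 8.88 to 8.90) and Erg28 (7.62, others 7.71 to 7.73), and in replicate E Cyp51 (7.59, others 7.19 to 7.24). Among the controls they were Hmgcs1 (11.81, others 12.03 to 12.05) and Pmvk (8.86, others 9.05 to 9.07) in replicate C, Scd1 (9.30, others 8.46 to 8.52) and Elovl5 (12.20, others 12.27 to 12.28) in replicate D, and Tm7sf2 (8.01, others 7.80 to 7.83) and Nsdhl (9.51, others 9.31 to 9.34) in replicate G.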

How the results depend on the processing

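Of 565 values of members under the alternatives, 517 kept their direction and their side of the threshold, 48 turned in sign and 0 came past the threshold. The other filters, the other prior and the unmoderated test leave each difference as it was, so no sign could turn there. The members' count at an adjusted p under 0.05 was 0 in each alternative run. For all genes it was 0 except without E2f3-deleted replicates E (56) and H (14), a range of 0 to 56 with one array left out. Grouping by the letter of the scan file lowered the fatty acid median to 0.073, with Scd1 at 0.32, Me1 at 0.16 and Srebf1 at 0.39. It left 1 of 32 members at an unadjusted p under 0.05 (limma), and 449 of all 10916 genes, where the titles gave 1548. Exchanging control B and E2f3-deleted F tends by itself to shrink a difference between the titled groups. Smaller values therefore do not show which grouping is right, and the cause of these changes was not tested.

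The values that turned were mostly small. With that grouping they were Srebf2 0.011, Sqle −0.011, Cyp51 0.019, Hsd17b7 −0.049, Sc5d −0.088, Acaca −0.071, Elovl6 −0.059 and Fads1 0.072. With the probe sets of a gene averaged they were Scap −0.039, Idi1 0.041, Fdft1 −0.036, Hsd17b7 −0.069, Sc5d −0.049, Acly −0.039, Fads1 0.041, Ggps1 0.047 and Mbtps1 −0.015. With probe sets not marked as shared they were Fdft1 −0.12, Hsd17b7 −0.15 and Acly −0.16. Repeated quantile normalization gave Hsd17b7 −0.0015 and Fads1 0.0051, and median centring Hsd17b7 −0.0043 and Mbtps2 −0.0018. Array weights gave Idi1 0.069, Sqle −0.0031, Hsd17b7 −0.0031 and Mbtps2 −0.020. With one array left out, the ranges that crossed 0 were −0.017 to 0.065 for Acaca, −0.073 to 0.036 for Fads1, −0.020 to 0.29 for Fdft1, −0.10 to 0.0032 for Hmgcs1, −0.041 to 0.045 for Hsd17b7, −0.11 to 0.12 for Idi1, −0.019 to 0.13 for Insig1, −0.023 to 0.13 for Mbtps1, −0.034 to 0.049 for Mbtps2, −0.055 to 0.24 for Scd2, −0.17 to 0.20 for Sqle, −0.067 to 0.0081 for Srebf2 and −0.034 to 0.26 for Stard4. The branch medians ran from −0.12 to −0.019 (sterol) and 0.19 to 0.32 (fatty acid). The 60th percentile filter left 24 members. No paired analysis was possible because the groups share no replicate letters.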

Other observations

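Genes of the liver X receptors, which sense oxysterols and drive cholesterol efflux and Srebf1 transcription, had mostly lower means, none past the threshold. Of 9 tested, 8 had lower and 1 higher means in E2f3-deleted macrophages, where 41.3% of all genes had higher means. Their median was −0.14 against −0.03 for all genes. At an unadjusted p under 0.05 there were 0, against 14.2% of all genes, and 0 passed after adjustment (limma). Lpcat3, a lysophospholipid acyltransferase, differed by −0.14 (SE 0.073), Abcg1, a cholesterol exporter, by −0.21 (SE 0.114) and the receptor gene Nr1h3 by −0.21 (SE 0.135). Nr1h3 had signals from 6.88 to 7.33 in controls and from 6.62 to 7.10 in E2f3-deleted macrophages, with overlapping groups. Control C was the lowest of the controls in 12 of 22 sterol genes, a share that was not counted over all genes. For the liver X receptor list it was the highest of the 8 arrays, with a median of 0.19, and replicate H was the lowest at −0.28. The median of liver X receptor genes was −0.018 without replicate H, and without control C it was −0.021.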
